A study of Mus musculus with 15 samples.

Results

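The genes described here are 34 markers of Kupffer cells, the resident macrophages of the liver, and of other macrophages and monocytes. Each was found by its symbol in the authors' deposited table of the comparison by genotype, where the row of highest mean stands for a repeated symbol. All 34 had a row among 24965 genes, 0 of the symbols stood on more than 1 row, and 31 had an adjusted p, as did 13335 genes in all. The remaining 3 (Trem2, Gpnmb and Itgam) had a p but no adjusted p and are given with the others of their role.

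RNA came from frozen whole livers of 15 male C57BL/6J mice, 9 weeks old, all homozygous for floxed Gata4, a zinc finger transcription factor gene. At 8 weeks the Gata4LKO mice received AAV8-Tbg-Cre, a virus that expresses Cre recombinase from the Tbg promoter, and the Control mice received an empty AAV8, so that the presence of Cre goes with the genotype label. The Tbg promoter is active in hepatocytes, so that macrophages were not the cells in which Cre was to act. After 7 days livers were collected from 4 Gata4LKO and 4 Control mice fasted for 12 h. Livers were also collected from 3 Gata4LKO and 4 Control mice fasted for 12 h and refed for 12 h on a diet of 69% sucrose and 10% fat. The table gives 1 mean over the 15 libraries and 1 estimate of change per gene, with no value per liver, so that the spread within a group enters only through the standard error (SE) of the authors' model. Values are therefore given as the mean normalized count (reads divided by a size factor per library, averaged over all libraries) and the log2 fold change (log2 change), Gata4LKO over Control, in fasted livers. The refed livers entered the authors' model, and their own values are not analysed here.

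The columns do not say which groups were compared. Genes with a single read showed that 4 libraries were set against 4 others in a model of genotype, feeding and their interaction, with fasted Control livers as its baseline. Of 72 readings 2 remained, Gata4LKO over Control in fasted livers and refed over fasted in Control livers. The first was used because the result is named for genotype, and every statement on genotype rests on it. Pck1, a gluconeogenesis gene that fasting induces, had a log2 change of 0.01 ± 0.82 (SE) by the authors' deposited table. Its interval held 0 and reached past a 2-fold change in both directions, so that it does not settle the choice. Gata4 was not lower in the livers labelled Gata4LKO: at a mean of 326.9 normalized counts its log2 change was 0.31 ± 0.15 (SE), with an interval of 0.03 to 0.60, an unadjusted p of 0.0324 and an adjusted p of 0.361, by the authors' deposited table. A whole-gene count is an incomplete check of a deletion of part of the exons. The values thus do not show the loss of Gata4, and they do not settle the choice between the 2 readings either. Livers are named by their labels. Relative size factors of the libraries ran between 0.912 and 1.11, and the means of all genes summed to 1.80e+07 normalized counts, while the read total of each library is unknown. The titles of each group carry a number of their own, so that anything that number stands for cannot be told apart from the group.

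Kupffer cells line the liver sinusoids, where they take up bacteria, old red cells and modified lipoproteins from portal blood. They depend on CSF1 receptor signalling, on the transcription factors PU.1, LXR-alpha and ID3, and on cues from endothelial, stellate and hepatocyte neighbours. In mice, CLEC4F and TIM4 (gene Timd4) mark the resident, embryonically derived population, while CCR2, CX3CR1 and CD11b (gene Itgam) mark monocytes and cells newly derived from them. TREM2, GPNMB and CD9 mark the lipid-associated macrophages that appear in fatty or injured liver. Several of the 34 genes are not confined to macrophages: Mrc1 is also an endothelial scavenger receptor gene in the sinusoids, and Cd9, Cd14 and Tlr4 are transcribed in other liver cells.

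Of the 31 markers with an adjusted p, 1 fell, 0 rose and 30 were not called in Gata4LKO livers. A gene was called at an adjusted p under 0.05 in the authors' Wald test (DESeq2, adjusted by Benjamini and Hochberg over all tested genes). That test called 2.19% of all tested genes, 1.60% lower and 0.585% higher, against 1 of 31 markers. The gene that fell was Mpeg1, which encodes the pore-forming protein perforin-2 of the macrophage phagosome. An unadjusted p under 0.05 was found for 3 markers (Mpeg1, Folr2 and Clec4f, all lower), or 9.68% of those tested, against 11.4% of all tested genes. For the 31 the median log2 change was -0.22, against 0.01 over all tested genes. Of the 31 estimates 23 (74.2%) were negative, against 48.1% of all. Markers of the same cell type can vary together with its share of each liver. Their estimates, here and within each role, are thus not independent observations. The median was -0.13 among the 15 markers with a mean of at least 100 and -0.12 with the 3 untested markers included. Neither the median nor the share of negative estimates was tested, and 30 of the 31 markers were not called. Where a level does differ in RNA of whole liver, fewer cells of a type and less RNA per cell cannot be told apart.

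**Figure D1:**
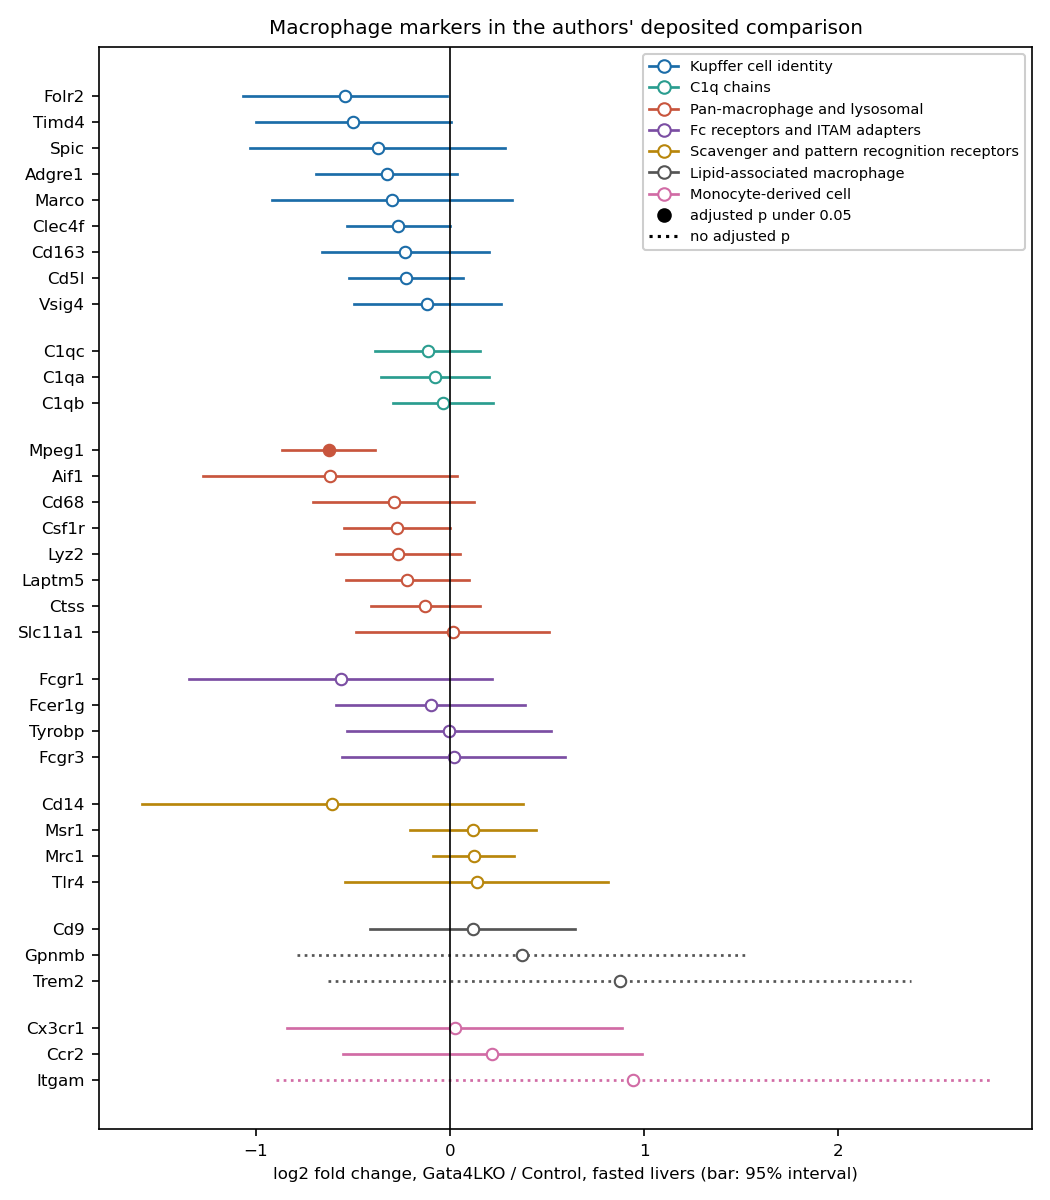
Log2 fold change, Gata4LKO over Control in fasted livers, of the 34 markers by role. Points are estimates and bars 95% intervals from the authors' deposited table, a filled point marks an adjusted p under 0.05, and dotted bars mark the 3 genes without an adjusted p. Mpeg1 at -0.62 is the filled point, and all 9 genes of Kupffer cell identity lie left of 0.

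Levels were compared between markers in mean normalized counts per kilobase of annotated exon. Clec4f stood highest of the 34, at 228.7 mean normalized counts per kilobase, followed by C1qa at 212.8, Cd5l at 212.5 and C1qb at 199.9. Lyz2, Ctss and Mpeg1 came next, with Mpeg1 the seventh at 156.3 per kilobase, and the median marker stood at 27.3. Genes of Kupffer cell identity were spread over the range, from Clec4f to Spic at 4.75 per kilobase. Timd4, with 22.6 per kilobase, and Vsig4, with 120.2, were also present. The lowest 4 markers per kilobase were Itgam at 0.545, Trem2 at 0.869, Gpnmb at 1.21 and Cx3cr1 at 3.17. All 34 markers together made up 0.0274% of the sum of means over all genes.

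**Figure D2:**
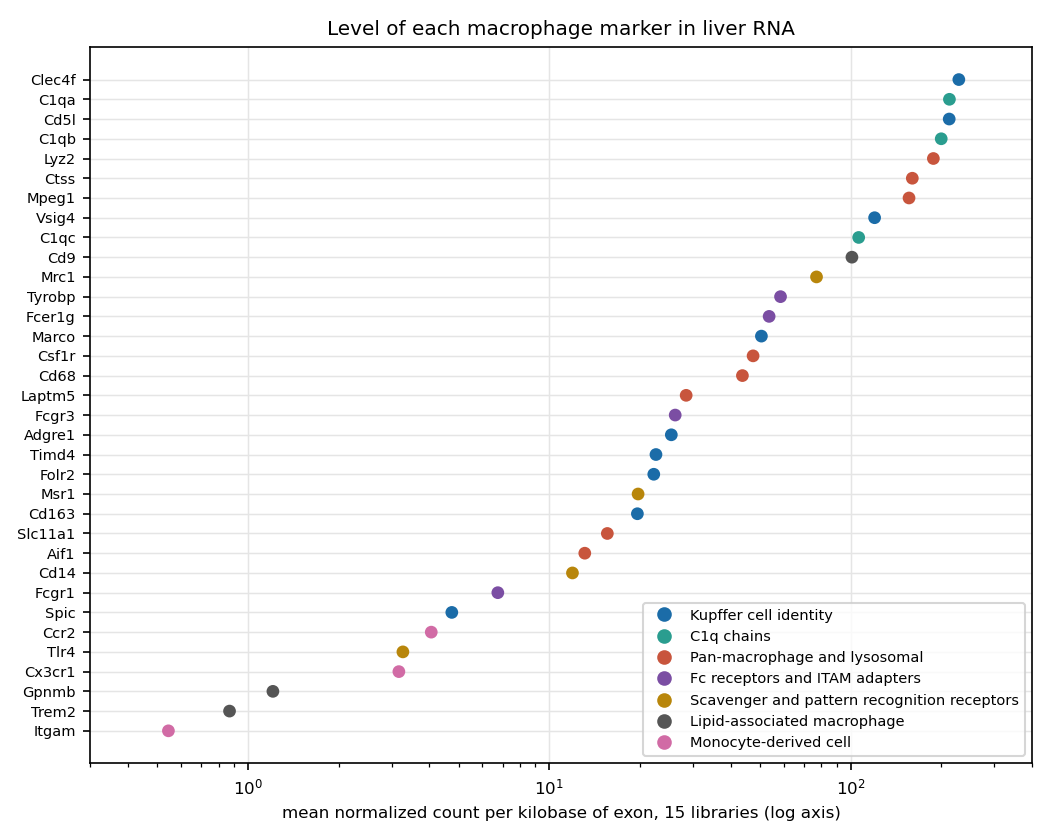
Mean normalized count per kilobase of exon over 15 libraries for each marker, on a log axis, coloured by role. Clec4f is the highest at 228.7 and Itgam the lowest at 0.545; the 3 markers of monocyte-derived cells are all among the 6 lowest.

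Mpeg1 (ENSMUSG00000046805, chromosome 19, 12460779 to 12465283, plus strand, mm10, with 2 exon blocks) had the smallest p of the markers. Its mean was 677.4 normalized counts in the authors' deposited table, the highest of the 34. Its log2 fold change in the authors' deposited table was -0.62 ± 0.12 (SE), with a 95% interval of -0.86 to -0.38, a p of 3.47e-07 and an adjusted p of 8.72e-05. Levels in Gata4LKO livers were thus 0.649 times those in Control livers, with an interval of 0.549 to 0.766. By its p the gene was number 53 of 13335 tested genes, while the next marker, Folr2, was number 1402. The intervals of 4 markers (C1qa, C1qb, Mrc1 and Msr1) lay wholly above that of Mpeg1, and those of the other 26 overlapped it; the differences between markers were not tested. No annotated gene shares exon bases with it.

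The promoter of Mpeg1 is shown as that of the marker that fell, beside that of Clec4f, the most abundant marker per kilobase, which was not called. Each window holds 250 bases before and 50 after a start that RefSeq annotates in GRCm38.p6, written 5′ to 3′ on the gene's strand. The Mpeg1 window is chr19:12460520-12460819 on the plus strand and the Clec4f window chr6:83656067-83656366 on the minus strand. Capitals mark matches to GAGGAA and GGAAGT, which are forms of the site of PU.1 and related ETS factors, or to AGATAA, a form of the GATA factor site, on either strand.
Mpeg1: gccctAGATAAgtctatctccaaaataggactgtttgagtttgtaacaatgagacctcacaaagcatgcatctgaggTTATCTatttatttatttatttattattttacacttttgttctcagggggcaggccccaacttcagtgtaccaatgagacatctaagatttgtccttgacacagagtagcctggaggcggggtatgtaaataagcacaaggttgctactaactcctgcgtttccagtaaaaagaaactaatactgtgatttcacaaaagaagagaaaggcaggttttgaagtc
Clec4f: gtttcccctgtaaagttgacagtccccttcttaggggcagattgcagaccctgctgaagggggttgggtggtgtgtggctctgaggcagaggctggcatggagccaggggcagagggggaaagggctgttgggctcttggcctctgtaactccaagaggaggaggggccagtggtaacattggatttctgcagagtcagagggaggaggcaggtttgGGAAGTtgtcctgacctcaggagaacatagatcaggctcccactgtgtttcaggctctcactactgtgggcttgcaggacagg
The Mpeg1 window held AGATAA 2 times, counting both strands, and neither of the others, and the Clec4f window held GGAAGT 1 time only. RefSeq windows were given for 27 of the 34 markers, 29 windows in all. Among these GAGGAA stood in 16 (55.2%), against 28.3% of 32851 windows of all genes, GGAAGT in 13 (44.8%), against 23.8%, and AGATAA in 2 (6.90%), against 11.2%. The first 2 motifs can overlap as parts of a longer site. A match is a stretch of letters and was not tested as a binding site.

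Genes of Kupffer cell identity had negative estimates in 9 of 9 cases, against 48.1% of all tested genes, and 0 passed the test. Their median log2 fold change was -0.30. In the DESeq2 Wald test of the authors 2 of these 9 had an unadjusted p under 0.05, against 11.4% of all tested genes. That test called 2.19% of all tested genes. Clec4f, a lectin gene restricted to Kupffer cells (ENSMUSG00000014542, chromosome 6, 83644542 to 83656187), had a mean of 565.1 normalized counts in the authors' deposited table. Its log2 fold change there was -0.27 ± 0.13 (SE), with a p of 0.0482 and an adjusted p of 0.432, which is a level in Gata4LKO livers of 0.831 times that in Control livers (95% interval 0.692 to 0.999). Folr2, the folate receptor beta gene, had the smallest p of the role, with a mean of 34.4, a log2 change of -0.54 ± 0.27 (SE), an interval of -1.06 to -0.01, a p of 0.0438 and an adjusted p of 0.417 in the authors' deposited table. Of its exon bases 63.1% are shared with the antisense gene Gm10602, whose log2 change was 0.58 ± 0.31 (SE) in the authors' deposited table. The strand setting of the counting is not given in the sources used here, so that Folr2 is uncertain.

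The phosphatidylserine receptor gene Timd4 averaged 49.1 normalized counts and had a log2 change of -0.50 ± 0.26 (SE, adjusted p 0.450) by the authors' deposited table. Adgre1, which encodes the F4/80 antigen, stood at -0.33 ± 0.19 (SE, adjusted p 0.518) in the authors' deposited table with a mean of 82.3. Both are surface markers in common use for resident macrophages, and neither passed. Cd5l, a secreted inhibitor of apoptosis in macrophages, had a log2 change of -0.23 ± 0.15 (SE, adjusted p 0.627) by the authors' deposited table at a mean of 432.6. The complement receptor gene Vsig4 was closest to 0 in the role, at -0.12 ± 0.19 (SE, adjusted p 0.913) in the authors' deposited table at a mean of 178.3. The estimates of the scavenger receptor genes Marco, at -0.30 ± 0.31 (SE) and a mean of 97.4, and Cd163, which takes up haptoglobin-hemoglobin, at -0.23 ± 0.22 (SE) and a mean of 107.1, had intervals in the authors' deposited table that held 0. Spic, the factor that red cell uptake induces in iron-recycling macrophages, averaged 18.2 normalized counts and had a log2 change of -0.37 ± 0.34 (SE) by the authors' deposited table.

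The C1q chain genes, which encode the recognition subunit of the classical complement pathway, were near 0 together. They lie side by side on the minus strand of chromosome 4, between 136880129 and 136898803, and macrophages are their main source. C1qa averaged 221.3 normalized counts and had a log2 change of -0.08 ± 0.14 (SE, adjusted p 0.919) by the authors' deposited table. C1qc, at a mean of 205.5, had the smallest p of the role, with -0.11 ± 0.14 (SE), a p of 0.405 and an adjusted p of 0.862 in the authors' deposited table. C1qb, at a mean of 217.5, had -0.04 ± 0.13 (SE, adjusted p 0.969) in the authors' deposited table. Their intervals in the authors' deposited table ran no lower than -0.38 and no higher than 0.22. Of these 3 genes 0 were called and 0 reached an unadjusted p under 0.05 in the DESeq2 Wald test of the authors. The shares over all tested genes were 2.19% and 11.4%.

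Among the 8 pan-macrophage and lysosomal genes Mpeg1 fell and the other 7 were not called, and Mpeg1 was also the gene of this role at an unadjusted p under 0.05 in the DESeq2 Wald test of the authors. That test called 1.60% of all tested genes lower, and 11.4% had an unadjusted p under 0.05. The median log2 fold change of the role was -0.27. Csf1r, the receptor on which Kupffer cells depend, had a mean of 274.1 normalized counts, a log2 change of -0.27 ± 0.14 (SE) and an adjusted p of 0.441 in the authors' deposited table; it shares 15.1% of its exon bases with Hmgxb3 on the opposite strand. Aif1, which encodes the actin-binding protein IBA1, had nearly the same estimate as Mpeg1, -0.62 ± 0.33 (SE, adjusted p 0.484), at a mean of 20.1 in the authors' deposited table. In the authors' deposited table its interval spanned -1.27 to 0.04, so that it leaves room for no change and for a fall of more than 2-fold. The lysozyme gene Lyz2, at a mean of 247.7, had -0.27 ± 0.16 (SE, adjusted p 0.569) in the authors' deposited table; its near-copy Lyz1, at a mean of 1.32 there, could share reads with it. Cd68, a lysosomal membrane glycoprotein gene, had -0.29 ± 0.21 (SE) at a mean of 55.0, and Laptm5, also of the lysosomal membrane, -0.22 ± 0.16 (SE) at a mean of 107.8, in the authors' deposited table. The cathepsin gene Ctss stood at -0.13 ± 0.14 (SE), at a mean of 217.7, and the phagosomal metal transporter gene Slc11a1 at 0.01 ± 0.25 (SE), at a mean of 57.8, in the authors' deposited table. Slc11a1 was thus the 1 gene of the role with a positive estimate.

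Fc receptors and their adapters, which pass on signals of antibody-coated particles, had a median log2 fold change of -0.05. Of 4 tested genes 0 were called and 0 reached an unadjusted p under 0.05 in the DESeq2 Wald test of the authors. The shares over all tested genes were 2.19% and 11.4%. Fcer1g, the shared gamma chain gene, had the highest mean of the role, 46.9 normalized counts, with a log2 change of -0.10 ± 0.25 (SE, p 0.691, adjusted p 0.947) by the authors' deposited table. Fcgr1, the high-affinity receptor gene, had the smallest p, with a mean of 17.5 and -0.56 ± 0.40 (SE, p 0.157, adjusted p 0.666) in the authors' deposited table. The low-affinity receptor gene Fcgr3 stood at 0.02 ± 0.29 (SE), at a mean of 45.5, and the adapter gene Tyrobp, the partner of TREM2, at -0.0049 ± 0.27 (SE), at a mean of 39.1, in the authors' deposited table. Fc receptor genes resemble each other in sequence, so that reads could be split between them.

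The scavenger and pattern recognition receptor genes had a median log2 fold change of 0.12. Of their estimates 3 of 4 were positive, against 6923 of 13335 over all tested genes. In the DESeq2 Wald test of the authors 0 of these 4 were called and 0 had an unadjusted p under 0.05. The shares over all tested genes were 2.19% and 11.4%. Mrc1, the mannose receptor gene, had the smallest SE of the tested markers, at a mean of 491.1 normalized counts, with a log2 change of 0.12 ± 0.11 (SE, p 0.251, adjusted p 0.769) by the authors' deposited table. Its interval of -0.09 to 0.33 in the authors' deposited table lies within a 2-fold change in either direction. The modified-lipoprotein receptor gene Msr1 stood at 0.12 ± 0.16 (SE, adjusted p 0.888) with a mean of 125.1 in the authors' deposited table. Cd14, the lipopolysaccharide co-receptor gene, had -0.61 ± 0.50 (SE, adjusted p 0.746) at a mean of 20.7, and its partner Tlr4 had 0.14 ± 0.35 (SE, adjusted p 0.946) at 18.2, in the authors' deposited table. The interval of Cd14 was the widest among the tested markers, from -1.59 to 0.37 in the authors' deposited table.

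Markers of lipid-associated macrophages and of monocyte-derived cells had positive estimates in 6 of 6 cases, 3 of them without an adjusted p, and all but Cd9 were low. Over all tested genes 6923 of 13335 estimates were positive. The interval of each of these markers held 0. Cd9, a tetraspanin gene, was the tested lipid-associated marker, at a mean of 206.5 normalized counts, with a log2 change of 0.12 ± 0.27 (SE, p 0.667, adjusted p 0.941) by the authors' deposited table. The lipid receptor gene Trem2 had a mean of 4.30 and a log2 change of 0.87 ± 0.77 (SE, p 0.254), and the glycoprotein gene Gpnmb a mean of 7.89 and 0.37 ± 0.59 (SE, p 0.532), in the authors' deposited table. The chemokine receptor gene Ccr2 had a mean of 27.4 and 0.22 ± 0.39 (SE, p 0.580, adjusted p 0.919), and Cx3cr1, the fractalkine receptor gene, a mean of 14.3 and 0.02 ± 0.44 (SE, adjusted p 0.994), in the authors' deposited table. Itgam, which encodes the integrin CD11b, had a mean of 2.74 and 0.94 ± 0.94 (SE, p 0.315) in the authors' deposited table; 68.7% of its exon bases are shared with Gm49368 on the same strand, which can take reads from it. Of the 3 tested genes of both roles 0 were called and 0 reached an unadjusted p under 0.05 in the DESeq2 Wald test of the authors. The shares over all tested genes were 2.19% and 11.4%. The means of Trem2, Gpnmb and Itgam were below the lowest of any tested gene, 8.20. In the authors' deposited table the interval of Trem2 spanned -0.63 to 2.38, so that it leaves room for a fall as well as for a rise of more than 2-fold.

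The precision of the tested markers varied with their means. Their standard errors in the authors' deposited table ran from 0.11 to 0.50 on the log2 scale, with a median of 0.22, and their means from 14.3 to 677.4 normalized counts. For 25 of the 31 the 95% interval lay wholly within a 2-fold change in either direction, 6 intervals (Timd4, Folr2, Spic, Aif1, Fcgr1 and Cd14) reached a 2-fold fall, and 0 reached a 2-fold rise. The interval held 0 for 28. Against the median SE of the 100 tested genes on each side in order of mean, the SE of 25 of 31 markers was larger, and the median ratio was 1.10. The ratio was 2.16 for Cd9, 1.83 for Marco, 1.54 for Cd5l, 1.45 for Clec4f and 1.41 for Mpeg1, while for Spic it was 0.919.

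**Figure D3:**
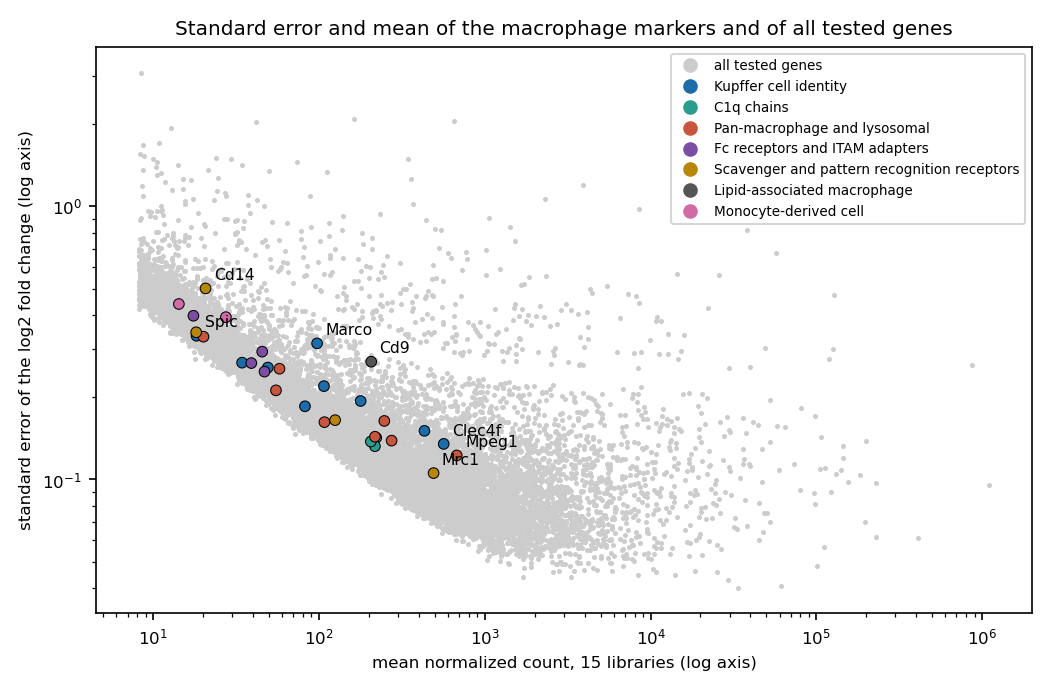
Standard error of the log2 fold change against the mean normalized count over 15 libraries, both on log axes, for the 31 tested markers (coloured by role) and all 13335 tested genes (grey). Cd9 and Marco lie above the bulk of genes of like mean, with ratios of 2.16 and 1.83, and Mpeg1 has the highest mean of the markers, at 677.4.

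Genes that work with the markers were read from lists of other genes. Beside the counts of these lists and those of other cell types stand the shares over all tested genes. Of all tested genes 48.1% had negative estimates, and 11.4% had an unadjusted p under 0.05 in the DESeq2 Wald test of the authors. That test called 2.19% of all tested genes, 1.60% lower and 0.585% higher. Of 8 ligands of the Kupffer cell niche 0 were called, 1 reached an unadjusted p under 0.05 in the DESeq2 Wald test of the authors, and the median log2 change was -0.10. The ligand with the smallest p was Gdf2, which encodes BMP9, at 0.42 ± 0.18 (SE, adjusted p 0.279), while Csf1, the ligand of the CSF1 receptor, had -0.24 ± 0.21 (SE), in the authors' deposited table. Among 13 tested transcription factors of Kupffer cells 0 were called, 2 had an unadjusted p under 0.05 by that test, and the median was 0.01. Spi1, which encodes PU.1, had the smallest p, at -0.51 ± 0.25 (SE, adjusted p 0.410) in the authors' deposited table. In heme and iron recycling 1 of 5 rose, Slc48a1, a heme transporter gene, at 0.49 ± 0.13 (SE, adjusted p 0.0191) by the authors' deposited table. All 5 estimates of that list were positive, with a median of 0.20, and 2 had an unadjusted p under 0.05. Hepatocytes transcribe these genes as well.

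Of 23 leukocyte signalling and phagocyte oxidase genes 0 were called, 1 reached an unadjusted p under 0.05 in the DESeq2 Wald test of the authors, Lcp1 at 0.26 ± 0.11 (SE, adjusted p 0.268) in the authors' deposited table, and the median was -0.11. The 5 MHC class II genes had 0 called and 0 with an unadjusted p under 0.05 by that test, a median of -0.29 and negative estimates throughout, with the smallest p for H2-Ab1 at -0.34 ± 0.25 (SE) by the authors' deposited table. The 7 tested chemokine and cytokine genes had 0 called, 1 with an unadjusted p under 0.05 by that test and a median of -0.26, with Ccl9 at -0.26 ± 0.13 (SE, adjusted p 0.401) in the authors' deposited table.

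Of the markers of other cell types 1 was called, and their part in the values of the macrophage markers was not tested. The DESeq2 Wald test of the authors called 2.19% of all tested genes, 1.60% lower, and 11.4% had an unadjusted p under 0.05. Sinusoidal endothelial markers had 0 of 12 called and 5 at an unadjusted p under 0.05 in the DESeq2 Wald test of the authors, with a median of 0.21. Of these 5, 4 had positive estimates, with Fcgr2b of smallest p at 0.29 ± 0.12 (SE), and Lyve1 was negative at -0.71 ± 0.33 (SE, adjusted p 0.364), by the authors' deposited table. Of 8 stellate cell, 3 cholangiocyte and 9 hepatocyte markers 0 were called by that test, 1, 0 and 2 had an unadjusted p under 0.05, and the medians were 0.09, 0.20 and 0.05. The genes of smallest p there were Hhip at 0.81 ± 0.32, Krt19 at 0.66 ± 0.57 and Ahsg at -0.15 ± 0.06 (SE) by the authors' deposited table. Of 5 red cell markers 1 fell, Alas2, the erythroid heme synthesis gene, at -0.41 ± 0.12 (SE, adjusted p 0.0288) in the authors' deposited table, with a median of -0.03. Alas2 shares 12.9% of its exon bases with Apex2 on the opposite strand, and the strand setting of the counting is not known. The call of Alas2 was lost, at an adjusted p of 0.0539, when every gene with a p entered the adjustment. Other leukocytes were barely measured: 2 dendritic cell, 2 monocyte, 1 neutrophil, 1 T or NK cell and 2 B or plasma cell markers had an adjusted p. In the DESeq2 Wald test of the authors 0 of these were called and 1, 1, 0, 1 and 0 had an unadjusted p under 0.05. Their genes of smallest p were Zbtb46 at -0.40 ± 0.19, Plac8 at -0.57 ± 0.24, Csf3r at 0.23 ± 0.37, Cd3e at -1.10 ± 0.55 and Igkc at 0.27 ± 0.21 (SE) by the authors' deposited table.

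**Figure D4:**
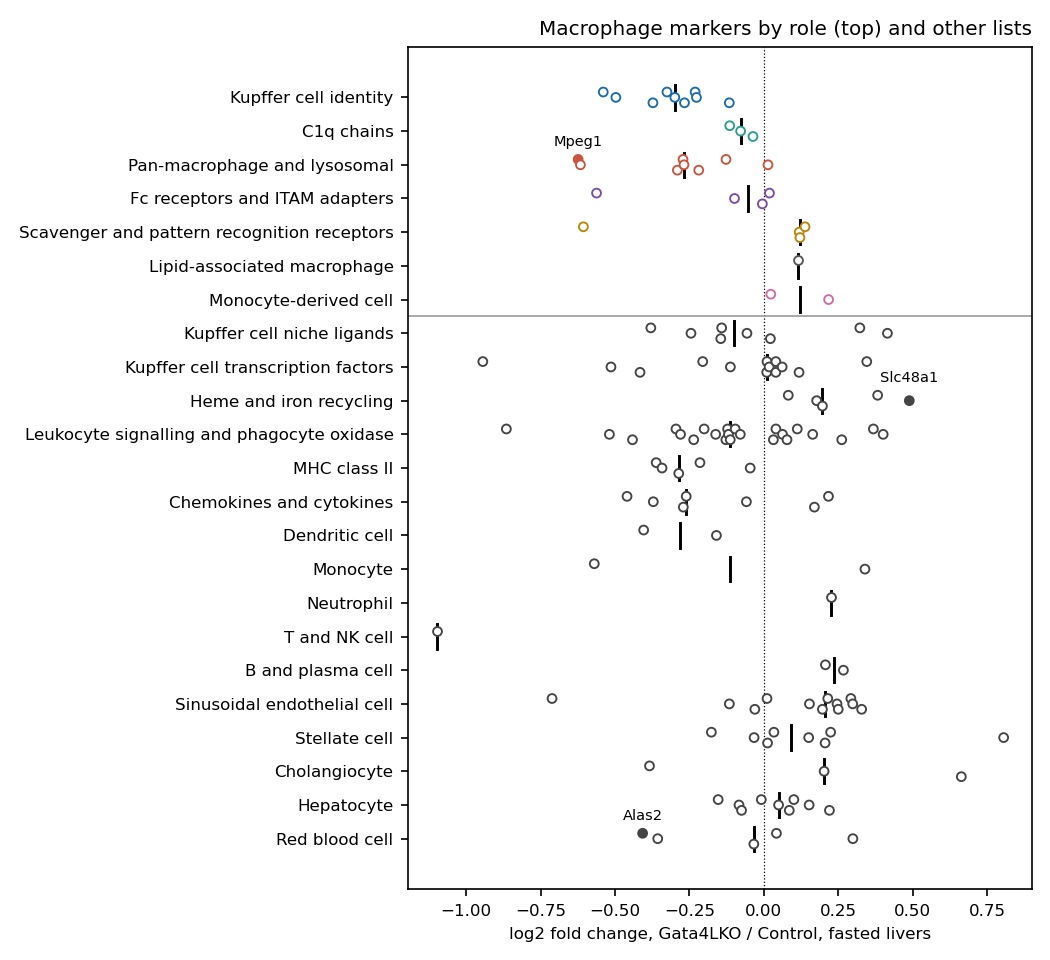
Log2 fold change, Gata4LKO over Control in fasted livers, of each tested gene by list, with macrophage markers by role above the line and other lists below; black bars are list medians and filled points have an adjusted p under 0.05. The filled points are Mpeg1 at -0.62, Slc48a1 at 0.49 and Alas2 at -0.41, and the median of Kupffer cell identity genes is -0.30 against 0.21 for sinusoidal endothelial markers.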

How the data were processed

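RNA of 15 livers was sequenced from libraries of a stranded KAPA kit, per the labels' protocols. STAR 2.6.0c, mm10 and DESeq2 are named in the submitters' processing notes. Which program counted reads, with which strand setting and annotation, is not given in the sources used here. Only 1 table was analysed, as deposited and not refitted. Per the file headers it holds a mean expression signal per gene, for which the authors scaled counts by size factors and took the mean of all libraries, a log2 change and its standard error, a Wald score, and p-values with their adjusted values. Adjusting the deposited p by Benjamini-Hochberg among the 13335 tested genes gave back the deposited adjusted p.

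The contrast was read from 166 genes that held 1 read in all. Their values were computed under 72 readings of model, baseline and contrast. Each used 1 weakly penalised step of negative binomial regression, with fitted means at their floor and the dispersion fixed. The computed values matched the deposited ones within 1e-06 for 2 readings, while the next closest was 3.04e-05 away. The code was also run on simulated single reads. These were made with the same step, so that the run checks the search over readings and not the step itself. Intervals are the estimate ± the normal 95% quantile times the standard error. Positions, exon lengths and overlaps come from GENCODE M21 (GRCm38, the assembly of mm10), and promoters from RefSeq. Python 3.11.15, pandas 2.3.3 and scipy 1.17.1 were used.

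The 34 markers, their 7 roles, the 16 other lists (143 genes, 142 with a row) and the rule for named genes were chosen with earlier results of these data known, so that no pattern here is independent support. The rule was to name every marker, with full values for the highest mean and the smallest p of each role, and the called gene or that of smallest p of each other list. The number of animals limits precision, and whether mice of a group shared a cage or day is not stated, so that such effects cannot be told apart from the group. Alternatives changed the genes that enter the adjustment, the threshold, the zero point and the row taken for a symbol.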

Additional observations from a re-analysis of the deposited data

How the results depend on the processing

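With 1 marker called lower and 0 called higher, the counts were the same when p-values were adjusted across all genes that had one, across those averaging at least 10 or at least 100 normalized counts, or across protein-coding genes, at a threshold of 0.1, and with the median of all tested genes (0.01) set to 0. Taking the row of lowest mean per symbol could change no marker, since each stood on 1 row. The adjusted p of Mpeg1 ran from 6.34e-05 to 0.000163 over the alternatives that recompute it. The median log2 fold change of the markers was -0.22 and ran from -0.23, with the median of all tested genes set to 0, to -0.12, with the untested markers included; it was -0.13 for means of at least 100 and -0.18 as a mean weighted by the inverse square of the standard error. In the other lists 1 gene was called higher and 1 lower. At a threshold of 0.1 there were 2 higher, the second being Blvrb, and when all genes with a p entered the adjustment there were 0 lower, since Alas2 no longer passed with more genes adjusted for. No paired analysis was possible because the table holds no values per liver; for the same reason no liver could be left out and no other normalization tried.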
